A study of Homo sapiens with 22 samples.

Results

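The 10 mRNAs described here are those of mitochondrial genome encoded subunits of the respiratory chain and the ATP synthase: MT-ND1, MT-ND2, MT-ND3, MT-ND4 and MT-ND5 of complex I, MT-CYB of complex III, MT-CO1, MT-CO2 and MT-CO3 of complex IV, and MT-ATP6 of complex V. They were chosen by symbol, and all 10 were found among the 20411 genes of both RNA-seq tables. The study treated acute myeloid leukemia cell lines with FP54, a small-molecule degrader of the RNA demethylase FTO, or with the solvent DMSO alone. In both MOLM-13 and NB4 cells, 3 libraries received 2 μM FP54 for 48 hours and 3 received DMSO, without any other agent or engineered allele. Each line is a single established culture, and nothing in the labels says whether the 3 libraries of a group came from separate cultures, so p-values measure the spread between these libraries only. Of 22 samples in the series, 12 are these RNA-seq libraries. The remaining 10, from m6A-seq and polysome-seq, were not used here.

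Mitochondrial DNA is transcribed inside the organelle by its own RNA polymerase, as long transcripts of each strand that are cut, mostly at the tRNAs lying between genes, into separate mRNAs. Most of these mRNAs then receive a short poly(A) tail. The mRNAs are translated on mitochondrial ribosomes, and their products join a larger number of nuclear-encoded subunits in the membrane complexes that pump protons and make ATP. Of all 13 mRNAs of this genome, 12 lie on one strand, the heavy-strand transcript, and MT-ND6 alone on the other. MT-ND4L and MT-ATP8, which overlap a neighbour, and MT-ND6 are not among the 10 and are set beside them where useful.

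On the hg38 mitochondrial chromosome of 16569 bases, the 10 genes lie between position 3307, the start of MT-ND1, and position 15887, the end of MT-CYB. Each is a single exon without introns, on the plus strand, of 346 bases (MT-ND3) to 1812 bases (MT-ND5). The ends of the annotated genes are shown because 6 of the 10 genes stop inside their last codon, which the tail itself completes. Whether each mRNA ends at the same base as its annotated gene was not examined. The last 30 bases of 6 genes are given 5′ to 3′ from the hg38 chromosome, with the bases of the last codon in capitals.
MT-ND1, chrM:4233-4262: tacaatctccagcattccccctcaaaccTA
MT-ND5, chrM:14119-14148: ctcatcctaaccctactcctaatcacaTAA
MT-CO1, chrM:7416-7445: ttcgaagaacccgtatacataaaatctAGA
MT-CO2, chrM:8240-8269: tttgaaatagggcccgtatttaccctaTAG
MT-ATP6, chrM:9178-9207: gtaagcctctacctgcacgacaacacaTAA
MT-CYB, chrM:15858-15887: taattgaaaacaaaatactcaaatgggccT
MT-ND1 ends on TA and MT-CYB, like MT-ND2, MT-ND3, MT-ND4 and MT-CO3, on a single T, while MT-ND5 and MT-ATP6 carry a full TAA. Neighbouring genes share bases: MT-ATP6 overlaps MT-ATP8 by 46 bases and MT-CO3 by 1, and MT-ND4 overlaps MT-ND4L by 7, so that reads over these bases cannot be given to one gene alone. GGAC, the core of the m6A motif, was searched on the mRNA strand only. It occurred 17 times in the 10366 bases of the 10 genes, or 1.64 per kb, and was absent from MT-ND1 and MT-ND3. The median over 8791 nuclear mRNAs was 3.56 per kb, 99.4% of them held at least 1 GGAC, and 9.27% had a density no higher than that of the 10 genes. Nuclear mRNAs were searched over whole transcripts, untranslated regions included, and G made up 9.50 to 16.2% of the bases of each of the 10 genes. The densities were not corrected for region, length or base content, so they do not compare numbers of m6A sites.

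The total of reads on protein-coding genes was between 16299701 and 17346913 in the MOLM-13 DMSO libraries and between 20654055 and 22344265 in the NB4 DMSO libraries. With FP54 it was 19191054, 5829730 and 12028681 in MOLM-13 replicates 1 to 3, and 10595647 to 13071303 in NB4 cells, so the second MOLM-13 FP54 library was the shallowest and all NB4 FP54 libraries were shallower than their controls. The mean over 400 olfactory receptor genes, which serve here as silent genes, was 0.00175 to 0.00387 RPKM in the NB4 DMSO libraries and 0.0509 to 0.0544 RPKM in the NB4 FP54 libraries, and 0.00381 to 0.00833 RPKM in MOLM-13 cells. All 6 myeloid markers examined were found in both lines, with SPI1 at 59.2 or more and CEBPA at 31.4 or more RPKM in each library. HOXA9, a marker chosen for MOLM-13, was at 19.1 to 25.4 RPKM in MOLM-13 and at 0.144 to 0.716 RPKM in NB4 cells, and MEIS1 and FLT3, chosen likewise, were also higher in every MOLM-13 library. HGF, chosen for NB4, was at 0.0682 to 0.124 RPKM in MOLM-13 and at 0.227 to 3.93 RPKM in NB4 cells. Of the markers of T, B, erythroid, epithelial and fibroblast cells, 2 exceeded 5 RPKM, CD3D (6 to 10.5) and EPCAM (7.83 to 11.3), both in NB4 cells, while the others were at 1.96 RPKM or less and CD2 and MS4A1 at 0.0574 RPKM or less. FTO mRNA, which encodes the protein that FP54 removes, had a mean of 1.01 RPKM in both treatments of MOLM-13 cells (SD 0.0767 with DMSO and 0.118 with FP54, n = 3). In NB4 cells it was at 2.73 ± 0.18 and 2.03 ± 0.0782 RPKM (SD, n = 3), a log2 fold change of −0.41 that was under the fold limit for a call but was −0.74, and called, with quantile normalization.

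The mRNAs of the 10 genes were among the most abundant in every library. Levels are in RPKM, a unit that divides reads by gene length and by sequencing depth. It does not correct for shared bases, nuclear copies and the removal of duplicate reads, which differ between these genes as given further on. In DMSO-treated MOLM-13 cells the order of mean levels ran from MT-CO1 (3048 ± 459, SD, n = 3) over MT-ND4 (2111 ± 363), MT-CO2 (1720 ± 278), MT-ATP6 (1138 ± 154), MT-ND1 (1102 ± 206), MT-ND5 (895 ± 212), MT-CO3 (887 ± 195) and MT-CYB (769 ± 159) to MT-ND2 (474 ± 99.9) and MT-ND3 (409 ± 116). The ranges of the 3 libraries were apart only between MT-CO1 and MT-ND4, between MT-CO2 and MT-ATP6 and between MT-CYB and MT-ND2, and each other neighbouring pair overlapped. In DMSO-treated NB4 cells MT-CO1 again stood first (4344 ± 193, SD, n = 3), followed by MT-CO2 (4022 ± 314), MT-ND4 (3793 ± 298), MT-ATP6 (3613 ± 168) and MT-CO3 (3489 ± 127), whose neighbouring ranges all overlapped. Below these came MT-ND1 (2526 ± 243), MT-ND2 (1844 ± 186), MT-ND5 (1360 ± 213), MT-CYB (1228 ± 186) and MT-ND3 (589 ± 37.1), apart from each other except for MT-ND5 and MT-CYB. MT-CO1 thus led and MT-ND3 closed the order in all 4 groups of libraries. Within 1 cell line the order changed little with treatment, with a Spearman rho of 0.964 over the 10 genes in both MOLM-13 and NB4 cells, given as a description of genes measured in the same libraries.

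Set side by side, the mean DMSO level was higher in NB4 than in MOLM-13 cells for each of the 10 mRNAs, by 1.43 times for MT-CO1 and 1.44 times for MT-ND3 up to 3.89 times for MT-ND2 and 3.94 times for MT-CO3. For all 10 the lowest NB4 DMSO library was above the highest MOLM-13 DMSO library. The tables of the 2 lines were normalized separately, so this difference was not tested. As a share of reads on genes, the 10 mRNAs took 1.20 to 1.66% in the MOLM-13 DMSO libraries and 2.65 to 3.01% in the NB4 DMSO libraries. With FP54 the share was 1.18, 0.684 and 1.56% in MOLM-13 replicates 1 to 3 and 1.92, 1.99 and 2.11% in NB4 replicates 1 to 3. The NB4 treatments did not overlap in this share, whereas in MOLM-13 cells 1 FP54 library was among the controls and the shallowest was far below them.

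**Figure D1:**
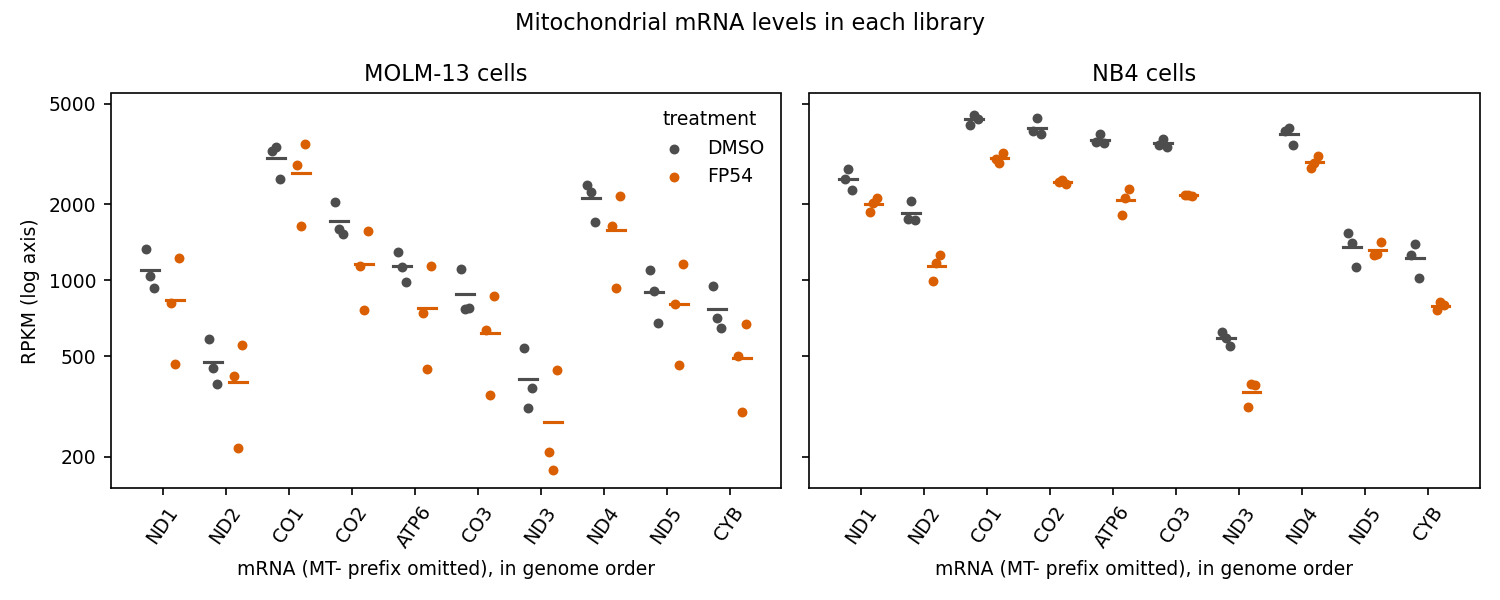
RPKM (log axis) of the 10 mRNAs in each library, in genome order, for MOLM-13 (left) and NB4 cells (right); each point is 1 library and each bar the mean of 3. In NB4 cells the treatments are apart for 9 of 10 mRNAs, all but MT-ND5, while in MOLM-13 cells they overlap for all 10.

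**Figure D2:**
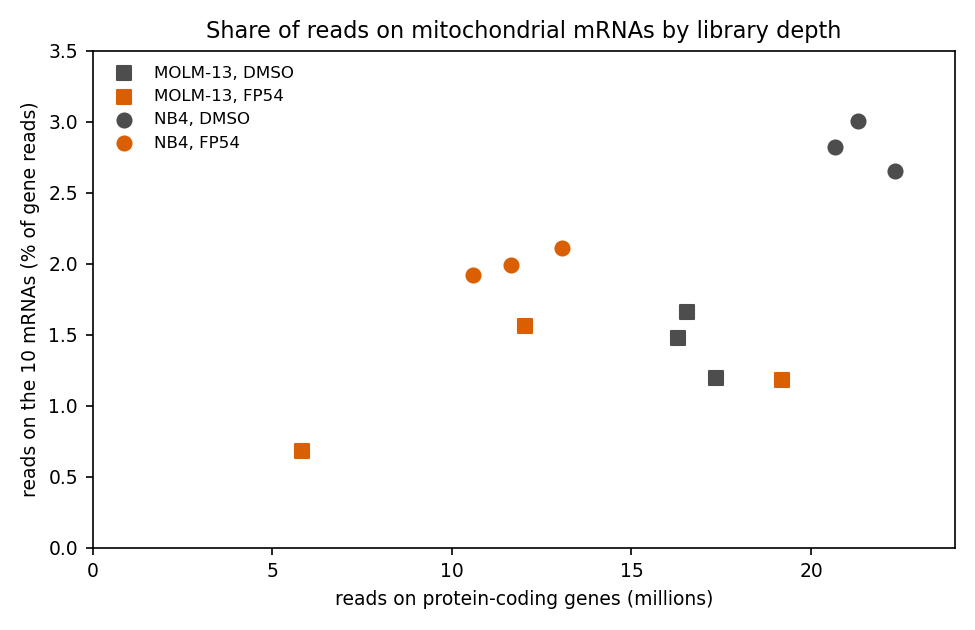
Reads on the 10 mRNAs as a percent of all gene reads (vertical) against the number of gene reads (horizontal, in units of 1e6), 1 point per library. The lowest share, 0.684%, belongs to the MOLM-13 FP54 library with 5829730 reads, and the NB4 FP54 libraries, at 1.92 to 2.11%, are all below the NB4 DMSO libraries at 2.65 to 3.01%.

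In NB4 cells, most of the mitochondrial mRNAs were lower with FP54. A gene was called when its unadjusted p was below 0.01 and its log2 fold change reached 0.5 in either direction, in a limma fit of log2(RPKM + 0.1) over 9853 genes. By this rule 7 of the 10 mRNAs were lower and none higher, while 10.7% of all genes tested were called lower. The median log2 fold change was −0.65 over the 10 mRNAs and 0.07 over all genes tested. At a Benjamini-Hochberg adjusted p below 0.05, without a fold limit, 9 of the 10 were lower, against 22.0% of all genes. The 3 FP54 libraries were all below the 3 DMSO libraries for the same number of mRNAs, 9 of 10, against 26.2% of all genes.

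All 3 mRNAs of cytochrome c oxidase were among the 7. MT-CO1, the subunit that holds the site of oxygen reduction, was at 4138, 4520 and 4375 RPKM in DMSO replicates 1 to 3 and at 3033, 2923 and 3209 RPKM in FP54 replicates 1 to 3, 70.3% of the control mean (log2 fold change −0.51, SE 0.09, limma adjusted p = 0.00121). MT-CO2, which takes electrons from cytochrome c, was at 3891, 4379 and 3794 RPKM with DMSO and at 2446, 2489 and 2407 RPKM with FP54 (log2 fold change −0.71, SE 0.10, limma adjusted p = 0.000158). MT-CO3, the third core subunit, was at 3449, 3631 and 3386 RPKM with DMSO and at 2171, 2184 and 2166 RPKM with FP54 (log2 fold change −0.68, SE 0.09, limma adjusted p = 0.00012). No FP54 library came near its controls for any of these mRNAs. The change in MT-CO1 sat at the fold limit, and its log2 fold change was −0.48, under the limit, without DMSO replicate 2 and also without FP54 replicate 2.

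MT-ATP6, the membrane subunit through which protons pass in the ATP synthase, had the lowest fold change of the 10. It was at 3539, 3806 and 3494 RPKM with DMSO and at 1810, 2116 and 2299 RPKM with FP54, 57.4% of the control mean (log2 fold change −0.81, SE 0.11, limma adjusted p = 0.000166). MT-CYB, the cytochrome b of complex III, was at 1265, 1393 and 1026 RPKM with DMSO and at 764, 822 and 796 RPKM with FP54 (log2 fold change −0.62, SE 0.11, limma adjusted p = 0.00123). For both mRNAs the treatments were apart.

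The 5 mRNAs of complex I did not move alike. MT-ND2, one of the proton-pumping membrane subunits, was at 1745, 2058 and 1728 RPKM with DMSO and at 998, 1177 and 1259 RPKM with FP54 (log2 fold change −0.69, SE 0.11, limma adjusted p = 0.000596). MT-ND3, a small subunit near the quinone site, was at 625, 590 and 551 RPKM with DMSO and at 315, 389 and 385 RPKM with FP54 (log2 fold change −0.70, SE 0.10, limma adjusted p = 0.000272). These 2 were called, with no overlap between treatments. MT-ND1, which lines the quinone site, was at 2516, 2774 and 2287 RPKM with DMSO and at 1871, 2023 and 2114 RPKM with FP54 (log2 fold change −0.33, SE 0.10, limma adjusted p = 0.0199). MT-ND4, another pumping subunit, was at 3923, 4005 and 3453 RPKM with DMSO and at 2781, 2923 and 3106 RPKM with FP54 (log2 fold change −0.37, SE 0.10, limma adjusted p = 0.0108). Both were apart from their controls, but by less than the fold limit, so they were not called. MT-ND5, the outermost pumping subunit, was at 1541, 1412 and 1125 RPKM with DMSO and at 1257, 1271 and 1419 RPKM with FP54 (log2 fold change −0.04, SE 0.12, limma adjusted p = 0.817). Its FP54 libraries all lay within the range of the controls.

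The NB4 counts depended on how the libraries were scaled: with quantile normalization 2 of the 10, MT-ND3 and MT-CYB, were called, a share near the 13.8% of all genes called lower in that fit, and the median log2 fold change was −0.08. The median over all genes was then −0.0347, and 1363 genes were called lower and 1280 higher, against 1050 and 1834 without it. That method gives the genes at each rank the same value in every library, and the 10 mRNAs held ranks 1 to 39 of 20411 with DMSO and 1 to 82 with FP54. With median-ratio scaling and with scaling to nuclear genes alone, 7 were called, against 13.5 and 11.1% of all genes called lower. The NB4 FP54 libraries were also the ones with the higher level of silent genes and the lower depth given above, and the part of these in the result was not tested.

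In MOLM-13 cells, none of the 10 mRNAs was called in the limma fit over 9710 genes, while 9.04% of all genes tested were called lower. At an adjusted p below 0.05 the count was also 0 of 10, against 9.32% of all genes. All 10 log2 fold changes were below 0, with a median of −0.54 against 0.00 over all genes. An unadjusted p below 0.05 was found for 3 (MT-CYB, MT-CO2 and MT-ATP6). The share of all genes at that cutoff is not given, so this count cannot be set against it. The treatments overlapped for all 10, whereas for 17.0% of all genes every FP54 library was below every DMSO library. The standard errors were 0.24 to 0.31 on the log2 scale, against 0.09 to 0.12 in NB4 cells.

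The FP54 libraries of MOLM-13 cells differed from each other for each mRNA. MT-CYB, with the lowest fold change, was at 950, 707 and 650 RPKM in DMSO replicates 1 to 3 and at 499.9, 301 and 673 RPKM in FP54 replicates 1 to 3 (log2 fold change −0.70, SE 0.27, limma adjusted p = 0.0907). MT-ATP6 was at 1296, 1130 and 989 RPKM with DMSO and at 745, 448 and 1139 RPKM with FP54 (log2 fold change −0.64, SE 0.28, limma adjusted p = 0.136). MT-CO2 was at 2039, 1591 and 1530 RPKM with DMSO and at 1142, 765 and 1572 RPKM with FP54 (log2 fold change −0.62, SE 0.24, limma adjusted p = 0.102). In each case 2 FP54 libraries were below all controls and the third was within their range.

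MT-ND3 was at 538, 312 and 376 RPKM with DMSO and at 209, 177 and 440.4 RPKM with FP54, and MT-CO3 at 1112, 773 and 775 RPKM with DMSO and at 636, 352 and 863 RPKM with FP54. Their log2 fold changes were −0.65 (SE 0.31) and −0.60 (SE 0.29). MT-ND1 was at 1331, 1041 and 933 RPKM with DMSO and at 814, 465 and 1230 RPKM with FP54. MT-ND4 was at 2384, 2250 and 1700 RPKM with DMSO and at 1640, 932 and 2160 RPKM with FP54. Both had a log2 fold change of −0.49, with SE 0.30 and 0.28, and the same arrangement of libraries as the mRNAs before them. MT-ND2 was at 584, 451 and 388 RPKM with DMSO and at 419, 217 and 553 RPKM with FP54. MT-CO1 was at 3244, 3376 and 2523 RPKM with DMSO and at 2870, 1648 and 3467 RPKM with FP54. MT-ND5 was at 1100, 910 and 676 RPKM with DMSO and at 805, 460.4 and 1159 RPKM with FP54. These last mRNAs had log2 fold changes of −0.34, −0.25 and −0.22, and only FP54 replicate 2 was below all of their controls.

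FP54 replicate 2, the shallowest library, was the lowest of the 6 for 10 of 10 mRNAs, and FP54 replicate 3 was the highest of its group for 10 of 10, within the range of the controls for 8 and above it for 2. Without FP54 replicate 2, again 0 of 10 were called, against 8.81% of all genes called lower, the median log2 fold change was −0.19, and MT-ND2, MT-CO1 and MT-ND5 had positive values. Without FP54 replicate 3, 6 of 10 were called lower (MT-ND1, MT-ND3, MT-CO2, MT-CO3, MT-ATP6 and MT-CYB), against 10.4% of all genes, and the median was −0.85. The 3 FP54 libraries had 358 or more reads on each of the mRNAs. The part of depth in this spread was not tested.

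**Figure D3:**
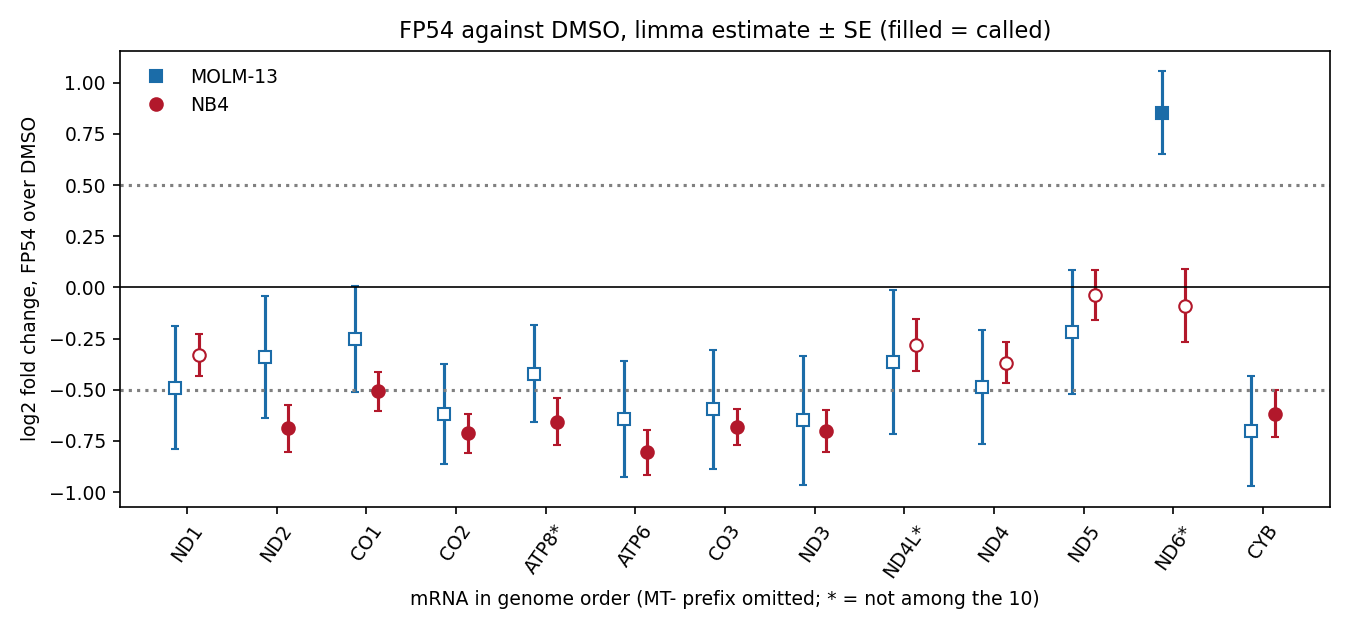
Log2 fold change of FP54 over DMSO (vertical) for the 13 mitochondrial mRNAs in genome order, as limma estimate ± SE from 3 libraries per treatment; squares are MOLM-13, circles NB4, filled symbols are called and dotted lines mark the fold limit of 0.5 in either direction. NB4 values run from −0.81 for MT-ATP6 to −0.04 for MT-ND5, MOLM-13 values have wider errors, and MT-ND6 in MOLM-13 cells is the only one called higher.

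The difference in effect between the lines was tested as an interaction over 8849 genes. At an adjusted p below 0.05, 0 of the 10 mRNAs passed, against 14.2% of all genes. At an unadjusted p below 0.05 the count was also 0, but the share of all genes at that cutoff is not given. The estimated differences, NB4 minus MOLM-13, ran from −0.35 for MT-ND2 (SE 0.37) to 0.18 for MT-ND5 (SE 0.37), each within its error of 0. The calls in NB4 cells and their absence in MOLM-13 cells are therefore not a shown difference between the lines. Over the 10 mRNAs the fold changes of the lines had a Pearson r of 0.653 and a Spearman rho of 0.612, a description over genes that share libraries. MT-ND5 had the fold change nearest to 0 in both lines.

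The make-up of the pool was then described by the share of each mRNA in the summed RPKM of the 10. A common scaling factor for all genes of a library does not change this share. Quantile normalization is not such a factor, and shares were not computed with it. MT-ND5 took 5.79, 4.94 and 4.46% in the NB4 DMSO libraries and 7.21, 6.94 and 7.41% in the NB4 FP54 libraries. In MOLM-13 cells it took 7.54, 7.25 and 6.42% with DMSO and 8.23, 7.98 and 8.74% with FP54. Thus all FP54 libraries were above all DMSO libraries in both lines, including the shallow MOLM-13 library. MT-ATP6 went the other way, from 13.3, 13.3 and 13.9% to 10.4, 11.6 and 12% in NB4 cells and from 8.89, 9.01 and 9.39% to 7.62, 7.76 and 8.59% in MOLM-13 cells. These 2 were the only mRNAs whose shares did not overlap between treatments in the same direction in both lines. For each of them the exact two-sided permutation p was 0.1 in each line, the smallest that 3 libraries against 3 allow. In NB4 cells the shares of MT-ND1 and MT-ND4 were also higher and those of MT-CO2 and MT-CO3 lower without overlap, and in MOLM-13 cells that of MT-CYB was lower. The shares of 1 library add up to a whole, so they are not independent of each other.

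**Figure D4:**
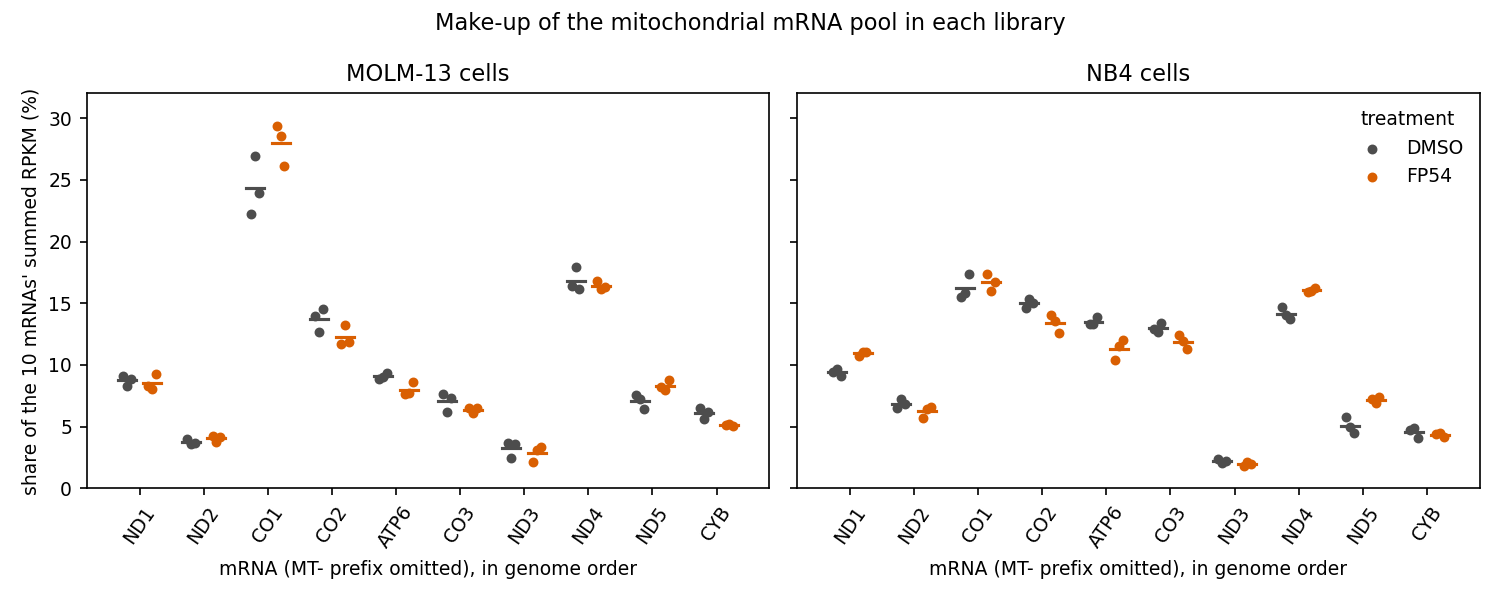
Share of each mRNA in the summed RPKM of the 10 (percent, vertical) in each library, in genome order, for MOLM-13 (left) and NB4 cells (right); points are libraries and bars means of 3. MT-ND5 is higher and MT-ATP6 lower with FP54 in both panels without overlap, and MT-CO1 holds the largest mean share in each group.

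Sequence features of the mRNAs that the choice did not use were set beside the fold changes. In NB4 cells the 6 mRNAs with an incomplete last codon had log2 fold changes of −0.70 to −0.33, with 4 called, and the 4 with a complete one −0.81 to −0.04, with 3 called. Nuclear copies of mitochondrial DNA can take reads away from these genes. Of all windows of 80 bases, an exact copy on a nuclear chromosome was found for 34.7% in MT-CO1, 32.5% in MT-ND2, 24.1% in MT-ATP6, 15.5% in MT-ND1, 12.2% in MT-CO3 and 8.93% in MT-CO2, and for 0% in MT-ND3, MT-ND4, MT-ND5 and MT-CYB. The 4 mRNAs without such a copy had NB4 log2 fold changes of −0.70 to −0.04, with 2 called, and the 6 with one −0.81 to −0.33, with 5 called. Duplicate reads were removed before counting, and the 10 mRNAs held up to 97.8 reads per base in the NB4 DMSO libraries and up to 41.9 in the NB4 FP54 libraries. The part of this step in the result was not tested.

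The other 3 mitochondrial mRNAs were mixed. MT-ATP8, the accessory subunit read from the same transcript as MT-ATP6, fell in NB4 cells from 1814 ± 221 to 1149 ± 104 RPKM (SD, n = 3, log2 fold change −0.66, SE 0.11, limma adjusted p = 0.000776), but was at −0.42 and not called with quantile normalization. MT-ND4L, which shares its transcript with MT-ND4, had log2 fold changes of −0.28 (SE 0.13) in NB4 and −0.36 (SE 0.35) in MOLM-13 cells and was called in neither. MT-ND6, the complex I subunit from the other strand, was at 92.2, 90.1 and 83.8 RPKM in the MOLM-13 DMSO libraries and at 115, 169 and 211 RPKM in the FP54 libraries. It rose by 0.85 on the log2 scale (SE 0.20, limma adjusted p = 0.0181), while 9.30% of all genes were called higher in these cells, and every FP54 library was above every control. In NB4 cells it was at 298, 302 and 204 RPKM with DMSO and at 192, 269 and 295 RPKM with FP54, with overlap (log2 fold change −0.09, SE 0.18). The difference between the lines was −0.94 (SE 0.30, limma adjusted p = 0.0514). The strand setting of the counting is not stated, so reads of the opposite strand over MT-ND6, and over each other mitochondrial gene, cannot be told apart from its own.

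Of the nuclear genes with a part in mitochondrial gene expression, not all of which act on mRNAs, those of mitochondrial transcription were examined first. In NB4 cells 3 of 10 genes tested were lower and none higher, where 10.7% and 18.6% of all genes were called lower and higher. The median log2 fold change of the list was −0.28. TFB2M, the factor that lets the polymerase open the promoter, fell from 24.6 ± 1.79 to 12.4 ± 1.03 RPKM (SD, n = 3, log2 fold change −0.98, SE 0.10, limma adjusted p = 1.99e-05). POLRMT, the polymerase itself, fell by 0.62 on the log2 scale (SE 0.12, limma adjusted p = 0.00138), and MRPL12, a ribosomal protein reported to bind it, fell by 0.70 (SE 0.16, limma adjusted p = 0.00434). POLRMT was not called without DMSO replicate 2, at a log2 fold change of −0.50, nor MRPL12 without FP54 replicate 3, also at −0.50, both just under the fold limit. TFAM, which packages the DNA and starts transcription, had log2 fold changes of −0.30 (SE 0.13) in NB4 and −0.38 (SE 0.21) in MOLM-13 cells, and TEFM, the elongation factor, −0.07 (SE 0.13) and 0.03 (SE 0.17), and neither was called. In MOLM-13 cells 1 of 9 (11.1%) was called lower, near the 9.04% of all genes. It was TFB2M, which fell by 0.83 on the log2 scale (SE 0.21, limma adjusted p = 0.0246). TFB2M was not called there without DMSO replicate 1 or without FP54 replicate 1 (−0.63 as the value nearest to 0).

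Among the nuclear lists, that of mitochondrial RNA processing and stability had the highest share of lower calls in NB4 cells. There 19 of 35 genes tested (54.3%) were lower and 1 was higher, where 10.7% and 18.6% of all genes were called lower and higher. Among the enzymes that free mRNAs from the tRNAs, all subunits of the 5′ end nuclease RNase P were lower in NB4 cells, with log2 fold changes of −0.79 for TRMT10C, −0.82 for HSD17B10 and −0.51 for PRORP, as was ELAC2, the 3′ end nuclease, at −0.63. SLIRP, which with LRPPRC forms a complex that keeps these mRNAs stable, fell from 31.6 ± 3.68 to 16.7 ± 0.5 RPKM (SD, n = 3, log2 fold change −0.91, SE 0.10, limma adjusted p = 3.86e-05), whereas LRPPRC was at 20.2 ± 2.73 and 18.8 ± 0.97 RPKM (SD, n = 3). SUPV3L1, the helicase of the RNA-degrading complex, fell by 0.79, and its partner nuclease PNPT1, at a log2 fold change of −0.49, and the poly(A) polymerase MTPAP, at −0.50, were just under the fold limit. Both were called with median-ratio scaling (−0.56 each) and with scaling to nuclear genes (−0.51 each), and MTPAP also with limma-voom (−0.51), with a pseudocount of 0.01 (−0.51) and with quantile normalization (−0.77). REXO2, which clears very short RNAs, fell by 0.53, but was at −0.48 when FP54 replicate 1 was left out and at −0.49 with a pseudocount of 1, both without a call. Of the 6 fits that left out 1 library, PRORP kept its call in those without DMSO replicate 2 or FP54 replicate 3, and its other values ran from −0.50 to −0.43. With a pseudocount of 1 it was at −0.34 and not called, and without a filter on low values its call was lost too.

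Further NB4 calls lay in the FASTK family, with log2 fold changes of −0.78 for FASTKD3, −0.63 for FASTKD5 and −0.60 for TBRG4. Others were enzymes that modify RNA, with log2 fold changes of −1.09 for MRM3, −1.05 for TRUB2, −0.84 for MRM1, −0.74 for PUS1, −0.65 for TRMT5 and −0.59 for both RPUSD4 and TRIT1. The helicases DDX28 and DHX30 fell by 0.83 and 0.51. PTCD1, an RNA-binding protein, rose by 0.53 (limma adjusted p = 0.00419). DHX30 was at −0.49 and not called without DMSO replicate 2 or FP54 replicate 3, nor with a pseudocount of 1 (−0.49) or quantile normalization (−0.47). PTCD1 was at 0.48 and not called without FP54 replicate 1, nor with median-ratio scaling (0.47), a pseudocount of 1 (0.37) or quantile normalization (0.16). MRM1 was at −0.47 and not called with a pseudocount of 1. Adjusted p-values of these NB4 calls ran up to 0.0153, that of PRORP.

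In MOLM-13 cells 10 of 32 genes of this list (31.2%) were lower and none higher, where 9.04% of all genes were called lower. They were, by log2 fold change, PNPT1 (−1.43), PUS1 (−1.34), TRMT10C (−0.89), FASTKD5 (−0.82), DHX30 (−0.79), REXO2 (−0.76), PRORP (−0.73), NSUN4 (−0.71), FASTKD1 (−0.55) and LRPPRC (−0.50), with limma adjusted p-values up to 0.0471. Of these, 6 were also called lower in NB4 cells (DHX30, FASTKD5, PRORP, PUS1, REXO2 and TRMT10C), 60.0% of the MOLM-13 calls and 31.6% of the NB4 calls. The MOLM-13 count was 4 without DMSO replicate 1, 2 without DMSO replicate 3, 2 without FP54 replicate 1 and 5 without FP54 replicate 2, where 5.63, 4.76, 5.19 and 8.81% of all genes were called lower, and FASTKD5 and PUS1 were the calls kept without any 1 library. Without a filter on low values, PNPT1, TRMT10C, PRORP and FASTKD1 lost their calls. LRPPRC lost it with quantile normalization (−0.49) and a pseudocount of 1 (−0.47). Both LRPPRC and FASTKD1 lost theirs with eBayes without a trend. With a block for replicate number LRPPRC, PRORP and FASTKD1 lost their calls and HSD17B10 gained one. The count was then 8 of 32, against 9.06% of all genes. SLIRP was at 10.7 ± 3.31 and 8.12 ± 1.47 RPKM (SD, n = 3) and was not called in MOLM-13 cells.

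Of the genes that copy and maintain mitochondrial DNA, 6 of 20 were lower in NB4 cells and 3 (15.0%) higher, against 10.7% and 18.6% of all genes. In MOLM-13 cells 3 of 19 (15.8%) were lower and 2 (10.5%) higher, against 9.04% and 9.30%, so the shares called higher were near or below those of all genes. TWNK, the replicative helicase, had log2 fold changes of −0.83 in NB4 and −1.85 in MOLM-13 cells, and ATAD3A, a membrane protein at the nucleoid, −1.12 and −1.56, all called. TWNK was not called in MOLM-13 cells without DMSO replicate 1, DMSO replicate 3 or FP54 replicate 1, nor without a filter on low values or with either other eBayes setting. TK2, the thymidine kinase that supplies mitochondrial nucleotides, rose by 1.10 in NB4 and by 0.69 in MOLM-13 cells. The third gene lower in both lines was ATAD3B, named after its values were seen. It is a close copy of ATAD3A, so that reads of the pair may have been split or mixed in counting. Of the translation factors, 2 of 15 (13.3%) were lower in NB4 cells, near the share of all genes, TUFM at a log2 fold change of −0.54 and GFM1 at −0.61. Without DMSO replicate 2 TUFM was at −0.40, and with quantile normalization at −0.33, and was called in neither. In MOLM-13 cells 1 of 15 (6.67%) was lower, below the share of all genes, TUFM at −0.92, while GFM1 was at −0.77 (SE 0.29) and not called.

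The nuclear-encoded partners of the same complexes were lower in part in NB4 cells. There 23 of 76 subunits tested (30.3%) were called lower, against 10.7% of all genes, and none higher, with a median log2 fold change of −0.39: 12 of 35 in complex I, 1 of 4 in complex II, which has no mitochondrial subunit, 2 of 9 in complex III, 3 of 11 in complex IV and 5 of 17 in complex V. Those with the smallest p in each complex were NDUFS5 (log2 fold change −1.12) and NDUFC1 (−1.01), SDHB (−0.55), UQCRFS1 (−0.60) and UQCRQ (−0.63), COX7B (−0.66) and COX6B1 (−0.75), and ATP5MC1 (−1.01) and ATP5MF (−0.75). With quantile normalization SDHB (−0.43) and UQCRQ (−0.47) were not called. SDHD, the other complex II subunit so chosen, was at −0.38 and not called. In MOLM-13 cells 2 of 77 (2.60%) were lower, below the 9.04% of all genes, NDUFB9 at a log2 fold change of −0.61 and ATP5F1D at −0.52. NDUFS6 (−1.10), SDHC (0.26), UQCRFS1 (−0.47), COX7B (−0.47), COX6C (−0.53) and ATP5MF (−0.53) were not called in MOLM-13 cells. In NB4 cells NDUFS6 fell by 0.85, and NDUFB9 (−0.40), ATP5F1D (−0.44), COX6C (−0.47) and SDHC (−0.03) were not called. No subunit was called in both lines. The MOLM-13 count of 77 was 14 without DMSO replicate 2, 4 without FP54 replicate 3, 1 without FP54 replicate 1 and 0 without DMSO replicate 1 or DMSO replicate 3. Of all genes, 12.4, 10.4, 5.19, 5.63 and 4.76% were called lower in these fits, in the same order. NDUFB9 and ATP5F1D were thus not called without DMSO replicate 1 or without DMSO replicate 3. NDUFB9 was also not called without FP54 replicate 1. ATP5F1D was not called without FP54 replicate 3, with quantile normalization (−0.46) or with a block for replicate number. NDUFS6 was called with that block and with limma-voom (−1.17).

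**Figure D5:**
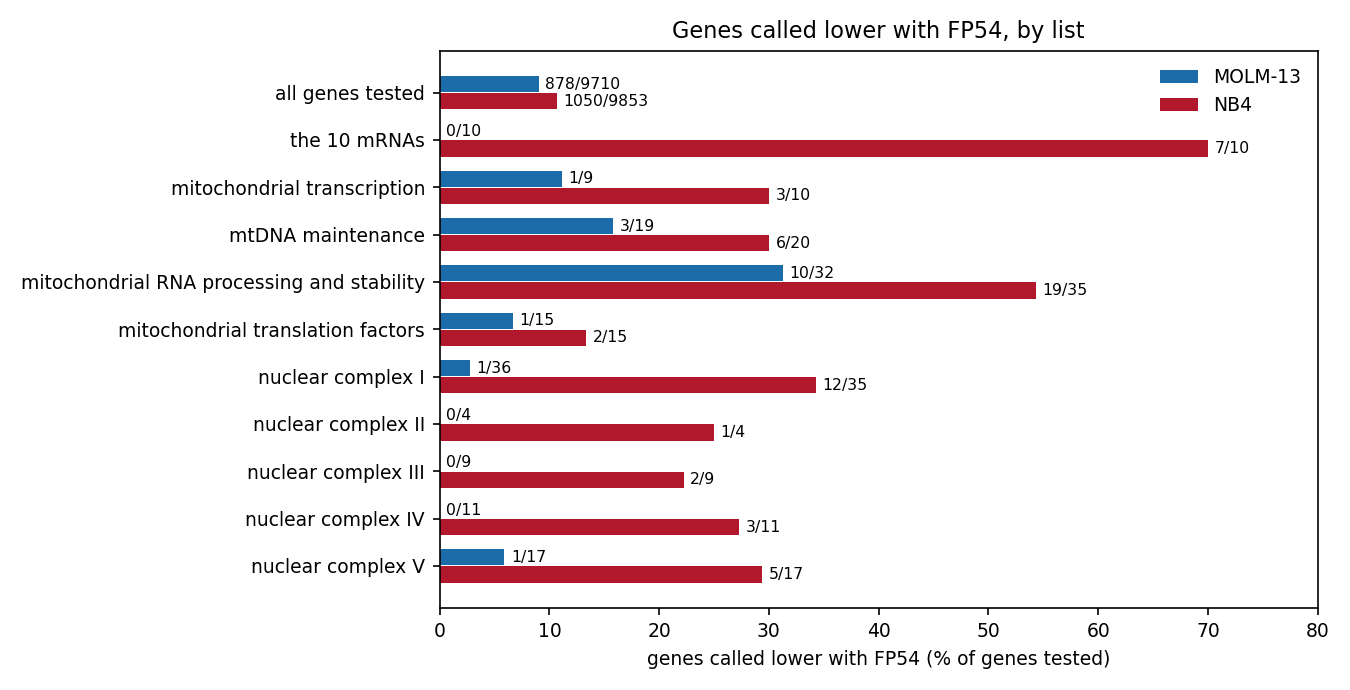
Percent of the genes tested that were called lower with FP54, by list, with the number called over the number tested beside each bar; blue is MOLM-13 and red NB4, and all genes tested are the top pair. In NB4 cells the 10 mRNAs (7 of 10) and RNA processing and stability (19 of 35) have the highest shares, and in MOLM-13 cells the 10 mRNAs have 0.

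Nuclear genes with a like pattern were sought by the Pearson correlation of each of 8836 genes with the mean of the 10 mRNAs over the 12 libraries, on log2 values centred within each line. The 5 with the highest r were SF3B4 (0.934), a splicing factor, RHOA (0.933), a small GTPase, SLC30A7 (0.928), a zinc transporter, ETV6 (0.926), a transcription repressor, and LSM2 (0.922), of the spliceosome. SF3B4 was at 26.7, 26.2 and 25.2 RPKM with DMSO and at 22.5, 16.6 and 24.8 RPKM with FP54 in MOLM-13 cells, with replicate 2 lowest and replicate 3 highest of the FP54 group, as for the 10 mRNAs. Each of the 10 had an r of 0.813 (MT-ND5) to 0.985 (MT-CO3) with their mean, of which it is a part, and MT-ND6 had −0.15. The correlation mixes the treatment effect with the spread between libraries.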

How the data were processed

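The deposited RPKM tables of the MOLM-13 and NB4 RNA-seq samples were used. According to the methods, the authors selected poly(A) RNA, trimmed reads with Cutadapt 4.8, removed duplicates with Clumpify, aligned to hg38 with STAR 2.7.11b and counted on protein-coding GENCODE V42 genes with featureCounts 2.0.3, and the deposited RPKM values follow from these counts. Neither the strand setting nor the lengths and totals behind the RPKM are stated. Versions follow the submitters' processing notes. Lengths of GENCODE V44 turned 98.2 to 99.0% of low values into whole reads (within 0.02), which gave the depths. Reads were not counted by molecular identifiers, so depth bounds counting error only.

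Log2(RPKM + 0.1) was fitted with limma 3.58.1 in R 4.3.3 (lmFit, eBayes with a trend), keeping genes whose 6 libraries of a line averaged 1 RPKM or more. The call, an unadjusted p under 0.01 and a log2 fold change of 0.5 or more in size, is that of the study's methods. Fold changes are on the log2(RPKM + 0.1) scale. All 10 mRNAs passed the filter. The script was tested on simulated data. Exact copies were sought with blastn 2.17.0. Python 3.11.15 with scipy 1.17.1 gave permutation tests.

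Each of these was varied in turn: the pseudocount (1, 0.01), the filter (none, 5 RPKM), the scaling (median-ratio, quantile, nuclear genes), a block for replicate number, eBayes settings (no trend, robust), the cutoffs and the set of libraries (each left out once). Limma-voom on the recovered reads was added after seeing the data and called 1958 MOLM-13 and 2918 NB4 genes. DESeq2, used by the authors, was not run.

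The 10 mRNAs and the gene lists, written from general knowledge, were chosen with earlier results of these data known. Genes named were the 13 mitochondrial mRNAs, FTO, called genes of the transcription and RNA processing lists with 8 fixed ones, the 2 smallest p of each other list and line, and the 5 most alike in pattern.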

Additional observations from a re-analysis of the deposited data

Results flagged for a closer look

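None of the 10 mitochondrial mRNAs passed the test of a difference in effect between the lines. Of 48 nuclear genes named with them, 3 did (6.25%) in the limma interaction test over 8849 genes, of which 14.2% passed. NDUFC1, a complex I subunit, had log2 fold changes of −1.01 in NB4 and 0.16 in MOLM-13 cells, a difference of −1.18 (SE 0.22, adjusted p = 0.00272). COX6B1, a complex IV subunit, had −0.75 and 0.08, a difference of −0.84 (SE 0.17, adjusted p = 0.00367). TRIT1, which modifies tRNAs, had −0.59 and −0.01, a difference of −0.58 (SE 0.17, adjusted p = 0.033). The call of TRIT1 was lost, with libraries of the same number left out of both lines at once, without DMSO replicate 2 (adjusted p = 0.0602), DMSO replicate 3 (0.155), FP54 replicate 1 (0.157) or FP54 replicate 3 (0.0961). The calls of NDUFC1 and COX6B1 were kept under each alternative run that gave a value.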

How the results depend on the processing

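In NB4 cells 7 mRNAs were called with pseudocounts of 1 and 0.01, with both other filters, median-ratio and nuclear scaling, robust eBayes, eBayes without a trend, and limma-voom on the recovered reads. In these fits 6.14 to 13.5% of all genes were called lower. With quantile normalization 2 were called, and MT-ND4 (0.17), MT-ND5 (0.20), MT-CO3 (0.0214) and MT-ND4L (0.0792) had log2 fold changes above 0. At a cutoff of p 0.05 and 1 log2 unit, 0 were called, and at p below 0.01 with no fold limit 9. The share of all genes at these cutoffs is not given, so the counts cannot be set against it. Leaving out 1 library gave 6 to 7 calls in NB4 cells, where 10.0 to 11.1% of all genes were called lower. In MOLM-13 cells it gave 0 to 6, where 4.76 to 12.4% of all genes were called lower, and every other alternative gave 0 there. The interaction stayed at 0 of 10 under all alternatives run.

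With the replicate number as a block, 7 mRNAs were called in NB4 cells and 0 in MOLM-13 cells, against 10.7 and 9.06% of all genes called lower. In the interaction 0 were called, and that of TRIT1 had a limma adjusted p of 0.0622. Deviations of libraries with the same number had correlations of −0.26, −0.13 and −0.06 in MOLM-13 and −0.14, 0.07 and 0.12 in NB4 cells. Between unlike numbers they ran from −0.26 to 0.22 in NB4 and from −0.46 to 0.59 in MOLM-13 cells. The highest MOLM-13 values were those of DMSO replicate 1 with FP54 replicate 3 (0.59), 2 with 1 (0.49) and 3 with 2 (0.47). Whether libraries were paired in another order than their numbers was not tested.

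Without 1 library, log2 fold changes in MOLM-13 cells ran from −0.63 to 0.0405 for MT-ND2, −0.53 to 0.14 for MT-ND5, −0.48 to 0.0613 for MT-CO1, −0.74 to 0.0579 for MT-ND4L, −0.10 to 0.13 for TEFM, −0.65 to 0.0415 for FASTKD3, −0.0792 to 0.0573 for TRIT1 (0.00764 with limma-voom), −0.43 to 0.0689 for DDX28, −0.0194 to 0.16 for COX6B1 and −0.0531 to 0.0702 for FTO, which passed the filter in 4 of the 6 fits. In NB4 cells they ran from −0.17 to 0.0598 for MT-ND5, −0.27 to 0.10 for MT-ND6, −0.18 to 0.0452 for TEFM and −0.0908 to 0.0431 for SDHC. With a library of the same number left out of both lines, the NB4 minus MOLM-13 difference of MT-ND5 ran from −0.15 to 0.44, and that of MT-ND6 had an adjusted p of 0.0297 to 0.137 over all alternatives. With 1 library left out, MOLM-13 counts of lower genes ran from 0 to 3 of 9 for transcription and 2 to 15 of 32 for RNA processing. They ran from 1 to 5 of 18 or 19 for mtDNA maintenance and 0 to 14 of 77 for nuclear subunits. The share of all genes called lower ran from 4.76 to 12.4% in the same fits. Without a filter RNA processing had 6 of 36 and mtDNA maintenance 1 of 20, against 5.53% of all genes. With a filter at 5 RPKM they had 6 of 15 and 0 of 10, against 9.22%. With quantile normalization nuclear subunits had 1 of 77, against 9.62%.

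Of 2195 values of single genes under an alternative, 25 changed sign, 92 lost and 63 gained a call. The spread of the MOLM-13 FP54 libraries limits what could be detected there. The cause of the differences between scalings was not tested.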
